A study of Mus musculus with 10 samples.

Results

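Collagen genes were examined in mouse hair follicle stem cells (HFSCs), the resting stem cells of the follicle bulge. They were taken as every gene of the deposited expression table whose symbol has the form Col, a number, the letter a and a number, which gave 43 genes of 37298. The classes used here placed 10 of them among epithelial and basement membrane collagens and 11 among fibrillar collagens, and the other 22 among FACITs (collagens that attach to the surface of fibrils), beaded-filament, short-chain network and other transmembrane collagens. RNA was sequenced from 4 libraries of HFSCs, which had been sorted from telogen back skin as integrin α6-high, CD34-positive, ScaI-negative and YFP-positive cells, from mice of mixed C57BL6 background. The labels name 2 of them as Sox9 conditional knockout (cKO) and the other 2 as controls, whose titles call them Sox9 Het and whose genotype field calls them wild type. All 4 came from mice given RU486, which activates the CrePGR recombinase. Neither the promoter that drives CrePGR nor the number of mice behind a library is stated in the labels. In both genotypes replicate 1 was male, aged 75 days and treated on days 48 to 61, and replicate 2 was female, aged 80 days and treated on days 53 to 66. Binding of SOX9, an HMG-box transcription factor of HFSCs, was mapped by ChIP-seq, the sequencing of DNA pulled down with an antibody, in untreated CD-1 females aged 52 to 60 days. This gave 2 peak lists from HFSCs (α6-high, CD34-positive, ScaI-negative) and 1 from interfollicular epidermal (IFE) cells (α6-high, CD34-negative, ScaI-negative).

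Collagens are secreted or membrane-bound proteins whose chains wind into trimers through long stretches of a repeat that begins with glycine. Fibrillar collagens, such as types I, III and V, are mainly products of fibroblasts and form the banded fibres of the dermis. Type IV collagen forms the sheet of the basement membrane under the epidermis and around the follicle, type VII anchors that sheet to the dermis, and type XVII, the transmembrane collagen of hemidesmosomes, holds basal keratinocytes to it and is known for its role in maintaining hair follicle stem cells. In cartilage SOX9 is known to switch on collagen genes, among them Col2a1 and Col11a2.

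Levels are given as FPKM (fragments scaled to transcript length and to the mapped fragments of the library), a measure per length, so that levels of different genes can be set side by side. The values of all genes summed to between 555420 and 903766 per library, and 14251 to 14516 genes stood at 1 FPKM or more. The number of reads is unknown, so an exact 0 is described only as a gene listed at 0. Unless stated otherwise, 4 values in a row are in the order labelled cKO replicate 1, Het replicate 1, labelled cKO replicate 2, Het replicate 2. Sox9 itself stood at 71.3, 82.7, 80.5 and 46.5 FPKM, lower in the labelled cKO than in its Het control in replicate 1 and higher in replicate 2, so the expression level does not check the genotype labels and directions follow the labels. This value is for the gene as a whole, not for the deleted part. The bulge and basal keratins Krt15 (8703 to 10894 FPKM) and Krt5 (6277 to 8536 FPKM) led the cell's own marker list, and all 10 of that list were at 1 FPKM or more. Suprabasal genes were also abundant: Krt10 stood at 1768, 1729, 2566 and 3973 FPKM and Lor at 247, 341, 1682 and 2775 FPKM.

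Most of the collagen FPKM of these cells, 87.6%, 84.5%, 83.8% and 80.4% of the sum over all collagens, was that of the epithelial and basement membrane class. Its 10 genes summed to 2268, 2318, 1349 and 1241 FPKM, against 49.3, 42.0, 44.6 and 23.8 FPKM for the 11 fibrillar genes. Per library the ratio of these sums was 46.0, 55.1, 30.3 and 52.1, with a mean of 45.9 ± 11.1 (SD over the 4 libraries). The library labelled cKO of replicate 2 had the lowest ratio. Without the most abundant gene of each class, Col17a1 and Col5a2, the ratio was still 10.2, 14.9, 6.97 and 17.3. Of the 43 collagens, 16 were at 1 FPKM or more in every library, 20 in at least 1 library, and 3 (Col9a1, Col6a6 and Col25a1) were listed at 0 in all 4. The remaining genes stayed under 1 FPKM everywhere, the highest being Col3a1 at 0.785 FPKM.

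**Figure D1:**
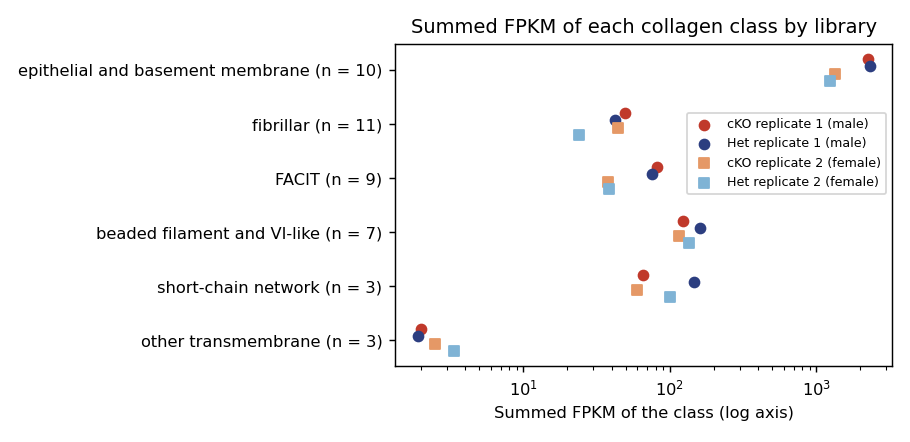
Summed FPKM (log axis) of each collagen class, with 1 point per library, circles for replicate 1 (male) and squares for replicate 2 (female). The epithelial and basement membrane class lies between 1241 and 2318 FPKM in the 4 libraries and the fibrillar class between 23.8 and 49.3.

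Col17a1, the hemidesmosome collagen, accounted for most of this RNA. It stood at 2018, 2012, 1177 and 1079 FPKM, which was 77.9%, 73.3%, 73.2% and 70.0% of the summed FPKM of all collagens. Both replicate 1 libraries were higher than both of replicate 2, and within each replicate the genotypes were close. In the order of all genes of a library Col17a1 ranked 17, 14, 130 and 98.

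Col17a1 (ENSMUSG00000025064; mm9 chr19:47720834-47766584) was also the collagen with the most SOX9 peaks. Within 10 kb of its locus HFSC list 1 had 7 peaks, HFSC list 2 had 1 and the IFE list had 1. The peak of list 2 lay upstream, its centre 6434 bp before the 5′ edge of the locus (chr19:47772768-47773269), and overlapped a peak of list 1 there (chr19:47772642-47773431). The IFE peak covered the 5′ edge itself (chr19:47766217-47766809), as did another peak of HFSC list 1 (chr19:47766127-47766962), while list 2 had none at that place. No other gene's locus edge lay within 10 kb of these peaks. A peak over the 5′ edge was also found at Col16a1, a FACIT gene (chr4:129725084-129776527), in HFSC list 2 (chr4:129724647-129725218) and the IFE list (chr4:129724728-129725135) but not in HFSC list 1. The edge of a second gene, Gm12963, lies under the same peak. These are the promoters of both genes as given by RefSeq, from 250 bases before to 50 bases after the gene's start in build GRCm38.p6, shown because a SOX9 peak covers the matching edge in mm9. The builds were not converted into each other. Capitals mark matches to the SOX core words ACAAT or ACAAAG on either strand.
Col17a1 (GRCm38.p6 chr19:47691993-47692292, minus strand): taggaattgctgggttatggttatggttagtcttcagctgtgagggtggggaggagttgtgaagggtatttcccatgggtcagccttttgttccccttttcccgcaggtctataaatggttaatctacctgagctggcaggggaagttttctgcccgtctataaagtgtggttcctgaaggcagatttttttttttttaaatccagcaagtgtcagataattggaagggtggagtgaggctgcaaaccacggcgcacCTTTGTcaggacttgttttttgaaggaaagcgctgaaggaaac
Col16a1 (GRCm38.p6 chr4:130047590-130047889, plus strand): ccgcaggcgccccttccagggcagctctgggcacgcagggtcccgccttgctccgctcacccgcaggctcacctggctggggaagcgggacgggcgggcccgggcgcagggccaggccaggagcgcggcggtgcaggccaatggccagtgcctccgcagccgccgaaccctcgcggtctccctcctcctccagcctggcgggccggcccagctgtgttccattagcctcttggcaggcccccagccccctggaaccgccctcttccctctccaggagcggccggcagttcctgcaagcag
The Col17a1 promoter holds 1 match, on the reverse strand at base 258 of the printed run, and the Col16a1 promoter holds none. Of 32544 distinct promoter sequences of this length, 42.7% hold at least 1 of these words, so a match is common over all genes. Of the 35 collagens with a promoter there 5 do, a smaller share that was not tested. The match is given as a description only.

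Of the other basement membrane collagens Col18a1 and Col7a1 were the most abundant. Col18a1, a collagen of epithelial and vascular basement membranes that also yields endostatin, stood at 139, 150, 100.3 and 89.0 FPKM. Col7a1, the anchoring fibril collagen, stood at 67.6, 96.2, 40.8 and 41.5 FPKM. Both were higher in replicate 1 than in replicate 2, with no overlap.

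Type IV collagen was represented by 4 of its 6 chains. Col4a1 stood at 9.60, 14.9, 9.92 and 9.12 FPKM and Col4a2, whose chain joins that of Col4a1 in the common form of the sheet, at 13.0, 24.5, 10.03 and 10.9 FPKM. The Het library of replicate 1 was the highest for both, and the ratio of Col4a2 to Col4a1 lay between 1.01 and 1.65. Col4a5 stood at 10.4, 9.47, 4.37 and 4.73 FPKM and Col4a6, a chain that pairs with it in skin, at 9.34, 9.26, 5.38 and 5.42 FPKM. Both followed the replicate number and their ratio stayed between 0.812 and 1.11. Col4a3 was under 0.61 FPKM everywhere, and Col4a4 stood at 0.656, 1.10, 0.415 and 0.577 FPKM. These are the chains of the glomerular form, which also needs Col4a5. Col15a1, a collagen found mostly near vessels, muscle and nerve, was listed at 0 in 3 libraries and at 0.0267 FPKM in the Het library of replicate 1.

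Fibrillar collagens were few and their chains unevenly present. Col5a2 led with 24.8, 21.5, 19.9 and 14.5 FPKM, followed by Col1a2 at 21.9, 14.8, 13.8 and 7.40 FPKM. Col5a1, which forms type V heterotrimers with the Col5a2 chain, stood at only 1.90, 3.74, 2.06 and 0.980 FPKM. The ratio of Col5a2 to Col5a1 was 5.75 to 14.7. Col3a1, the chain of type III, stood at 0.0443, 0.0637, 0.785 and 0.0233 FPKM. Col1a1, whose chain makes up the larger part of the type I trimer, stood at 0.336, 1.80, 6.99 and 0.802 FPKM. Col1a2 thus exceeded Col1a1 by 65.3, 8.21, 1.97 and 9.23 times, although type I collagen contains more of the Col1a1 chain. The other fibrillar genes (Col2a1, Col5a3, Col11a1, Col11a2, Col24a1 and Col27a1) reached at most 0.503 FPKM, the value of Col11a1 in the library labelled cKO of replicate 2, against a listed 0 in the other 3.

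That library stood apart in several mesenchymal genes, and Col1a1 and Col3a1 were highest in it. Acta2, the smooth muscle actin, was at 2.81, 2.55, 35.8 and 2.02 FPKM, and Des, the muscle filament desmin, at 5.01 FPKM there and listed at 0 in the others. The microfibril gene Mfap5 was at 2.18 FPKM there and at 0 elsewhere, and the collagen cross-linking enzymes Lox and Loxl2 were at 2.69 and 3.01 FPKM there and at no more than 0.007 and 0.187 FPKM elsewhere. Summed over 5 smooth muscle and pericyte markers it had 41.2 FPKM against 2.04 to 2.96 FPKM in the other libraries. Acta2 and Des made up most of that sum, while Myh11, Pdgfrb and Rgs5 stood at only 0.190, 0.233 and 0.060 FPKM there. Over 10 fibroblast markers the sums were 18.1, 16.5, 34.2 and 30.2 FPKM, of which Vim and Thy1 made up most, 3 of the 10 reaching 1 FPKM in any library. Of the defining fibroblast genes Pdgfra stayed between 0.066 and 0.136 FPKM, and Lum was listed at 0, 0.011, 0.386 and 0.015 FPKM. None of 6 endothelial and none of 4 adipocyte markers reached 1 FPKM in any library. Of 5 dermal papilla markers 1 (Hhip) did, of 5 immune markers 2 did (Itgam up to 27.6 FPKM and Cd207 up to 4.95 FPKM), of 5 melanocyte markers 2 and of 4 Schwann cell markers 3. The part of other cells in the Col1a1 and Col3a1 values was not tested. In bulk RNA, fewer cells of a type and less RNA per cell cannot be told apart. Without this library Col1a1 still stood at 0.336 to 1.80 FPKM, and the mean ratio of the epithelial to the fibrillar class was 51.1.

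**Figure D2:**
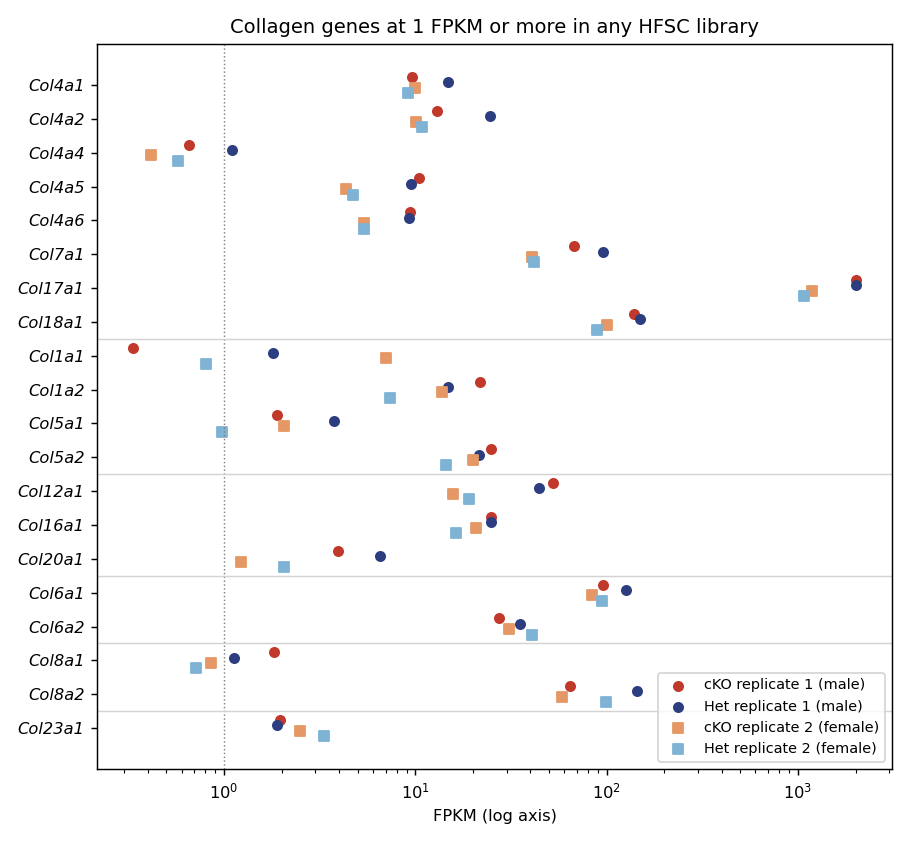
FPKM (log axis) of the 20 collagens at 1 FPKM or more in any library, 1 point per library, ordered by class with grey lines between classes and a dotted line at 1 FPKM. Col17a1 lies at 1079 FPKM or more in every library, and Col1a1 is highest in the library labelled cKO of replicate 2 (6.99 FPKM).

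Outside both classes Col6a1 and Col8a2 were the most abundant collagens. Col6a1 stood at 95.7, 126, 83.8 and 94.9 FPKM and Col6a2 at 27.3, 35.1, 30.9 and 40.9 FPKM. These chains of microfibrillar type VI collagen are known to assemble with a further chain, usually that of Col6a3. Col6a3 stood at only 0.131, 0.216, 0.476 and 0.0647 FPKM, so that Col6a1 exceeded it by at least 176 times in every library. Its alternatives Col6a4, Col6a5 and Col6a6 were at 0.039 FPKM or less. Col8a2, a short-chain collagen of sheet-like networks, stood at 64.1, 144, 58.7 and 99.4 FPKM, with both Het libraries above both labelled cKO. Its partner Col8a1 stood at 1.82, 1.12, 0.859 and 0.718 FPKM, from 35.3 to 138 times lower. In all 4 libraries Col1a2 thus exceeded Col1a1, Col6a1 and Col6a2 exceeded Col6a3, and Col8a2 exceeded Col8a1, with the smallest excess of Col1a2 and of the Col6 pair in the library with the mesenchymal genes.

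FACIT and transmembrane collagens completed the set. Col12a1, which decorates type I fibrils, stood at 52.3, 44.4, 15.7 and 19.1 FPKM, and Col16a1 at 25.0, 24.8, 20.9 and 16.4 FPKM. Col20a1 stood at 3.94, 6.52, 1.22 and 2.05 FPKM. Col23a1, a transmembrane collagen, stood at 1.96, 1.89, 2.50 and 3.35 FPKM and was the only one of the 19 tested collagens with both replicate 2 libraries above both of replicate 1. The 7 collagens of cartilage (Col2a1, Col9a1, Col9a2, Col9a3, Col10a1, Col11a1 and Col11a2), a group named after the values were seen, reached at most 0.673 FPKM (Col9a3).

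The comparison of labelled cKO with Het libraries asked whether collagen expression changes when Sox9 is deleted. Differences are in log2(FPKM + 1), which understates changes of low genes, and were tested with limma over the 14455 genes with a mean of at least 1 FPKM; 19 collagens were among them, and the other 24 were too low. No collagen passed at an adjusted p under 0.05 in the fit with genotype alone (limma, 0 of 19 with p under 0.05 before adjustment), and neither did any other gene (0 of 14455, 0.0%, with 93 under 0.05 before adjustment). When replicate number was added to the fit as a block, 41 genes passed (limma, 0.284%, of which 0.104% higher and 0.18% lower in the labelled cKO) and again 0 of 19 collagens, with 4 collagens and 1648 genes under 0.05 before adjustment. The median difference of the 19 collagens was -0.02, against -0.01 over all tested genes. The intervals were wide without the block: that of Col17a1 ran from -2.004 to 2.13 without the block and from -0.26 to 0.39 with it.

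The largest difference and the smallest p belonged to Col8a2 (ENSMUSG00000056174; mm9 chr4:125964037-125991574). It was lower in the labelled cKO by 1.16 in the male pair and by 0.75 in the female pair. The mean difference of -0.95 ± 0.39 (moderated SE) did not pass without the block (limma, adjusted p = 1.00), nor did -0.95 ± 0.14 with it (adjusted p = 0.0749). Col8a2 and Col6a2 were the only collagens with both labelled cKO libraries below both Het, 2 of 19, while 8.42% of all tested genes showed this. No collagen had both above both Het (5.47% of all tested genes). Over the 4 fits that left out 1 library, Col8a2 lay between -1.22 and -0.69 and Col6a2 between -0.48 and -0.27.

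Fibrillar genes had no common direction. Col1a2 differed by 0.54 and 0.82 in the 2 pairs (mean 0.68 ± 0.16 with the replicate block, limma, adjusted p = 0.2401) and Col5a2 by 0.20 and 0.44 (adjusted p = 0.474). Col1a1 differed by -1.07 in the male pair and 2.15 in the female pair, and Col5a1 by -0.71 and 0.63. Without the library labelled cKO of replicate 2 the value for Col1a1 was -0.75. The summed FPKM of the fibrillar class was 46.9 ± 3.3 (SD, n = 2) in the labelled cKO and 32.9 ± 12.9 in Het libraries (exact permutation test, two-sided, p = 0.333, the smallest that 2 against 2 allows).

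No epithelial or basement membrane collagen passed in either fit, and their differences varied by gene and pair. Their sum was 1809 ± 650 FPKM (SD, n = 2) in the labelled cKO and 1779 ± 761.6 FPKM in Het libraries (exact permutation test, two-sided, p = 1.00). This test is unpaired and cannot go below 0.333, most of the sum is Col17a1, and both SDs hold the difference between replicates, so it does not show that the genotypes are alike. In the male and female pair Col17a1 differed by 0.00 and 0.13, Col18a1 by -0.11 and 0.17, Col4a6 by 0.01 and -0.01, and Col7a1 by -0.50 and -0.03. The type IV genes Col4a1 (-0.58 and 0.11) and Col4a2 (-0.87 and -0.10) differed more in the male pair. The signs for Col17a1 and Col18a1 turn negative with quantile normalization. Across all 19 tested collagens, 6 were lower and 5 higher in both pairs and 8 had opposite signs.

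**Figure D3:**
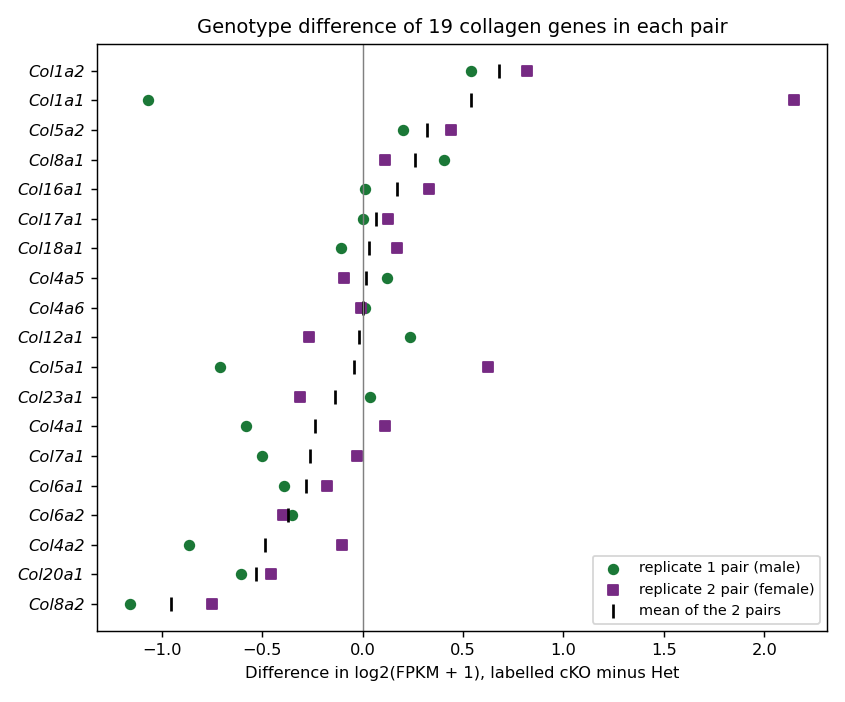
Difference in log2(FPKM + 1) between labelled cKO and Het libraries for the 19 tested collagens, with circles for the male pair, squares for the female pair and bars for their mean. Col8a2 lies lowest (-1.16 and -0.75), and the pairs of Col1a1 lie on opposite sides of 0 (-1.07 and 2.15).

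Genes that work on collagens gave no calls between genotypes either. Of 28 modifying and processing genes 21 were tested, of 10 collagen receptors 3 and of 17 basement membrane and hemidesmosome partners 13. In both fits 0 of each passed (limma), against 0.0% of all tested genes without the block and 0.284% with it. With so few calls over all genes, this does not set the lists apart. The chaperones and hydroxylases of the collagen chain were abundant: Ppib, a prolyl isomerase, stood at 168, 163, 341 and 312 FPKM, P4hb, a subunit of prolyl 4-hydroxylase, at 171, 158, 230 and 204 FPKM, Serpinh1, the collagen chaperone HSP47, at 62.2, 73.2, 81.7 and 93.5 FPKM, and Plod3, a lysyl hydroxylase, at 40.5, 44.4, 47.6 and 47.5 FPKM. Smallest p in that list had Pcolce2, an enhancer of procollagen processing (3.45, 7.90, 5.94 and 21.4 FPKM; difference -1.35, limma with the block, adjusted p = 0.0860), and Fkbp10, a prolyl isomerase of collagen folding (5.58, 12.5, 10.4 and 19.6 FPKM; difference -0.95, adjusted p = 0.0941). Among receptors Ddr1, a collagen-activated kinase, stood at 208, 203, 232 and 248 FPKM and Itgb1 at 120, 125, 86.2 and 71.1 FPKM. Itga2, whose integrin binds collagen, stood at 19.1, 20.2, 4.74 and 4.47 FPKM and Itga1 at no more than 1.43 FPKM. Among partners Lamb3 (227 to 355 FPKM), Agrn (175 to 313 FPKM), Dst (96.4 to 309 FPKM) and Itgb4 (127 to 230 FPKM) were the most abundant. Npnt, the basement membrane protein nephronectin, had the smallest p (23.7, 38.5, 15.4 and 31.8 FPKM; difference -0.84, limma with the block, adjusted p = 0.103), followed by Lama5 (difference 0.39, adjusted p = 0.438).

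The larger contrast within the collagens was between replicate numbers, which differ in sex, age, treatment days and possibly in preparation, so that these cannot be told apart. In the fit with replicate number alone, limma called 7 of 19 collagens, all lower in replicate 2, against 20.9% of all tested genes called lower and 22.4% called higher (6266 of 14455, or 43.3%, in either direction). Col12a1 fell by 1.42 ± 0.16 (moderated SE; limma, adjusted p = 0.00452), Col20a1 by 1.23 ± 0.29 (adjusted p = 0.0176), Col4a5 by 0.98 ± 0.16 (adjusted p = 0.00638), Col7a1 by 0.95 ± 0.19 (adjusted p = 0.0110), Col17a1 by 0.84 ± 0.25 (adjusted p = 0.0390), Col4a6 by 0.69 ± 0.16 (adjusted p = 0.0154) and Col18a1 by 0.60 ± 0.15 (adjusted p = 0.0210). These are 5 of 7 tested epithelial and basement membrane genes and 2 of 3 FACIT genes, and 0 of 4 tested fibrillar genes passed. Whether the classes differ was not tested. With genotype as a second term 10 collagens were called, all lower, with Col1a2, Col5a2 and Col4a2 in addition (24.1% of all tested genes lower and 25.8% higher). Both replicate 2 libraries lay below both of replicate 1 for 13 of 19 collagens (37.5% of all tested genes) and above them for Col23a1 (37.9%). The median difference of the 19 was -0.59, against 0.00 over all tested genes.

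**Figure D4:**
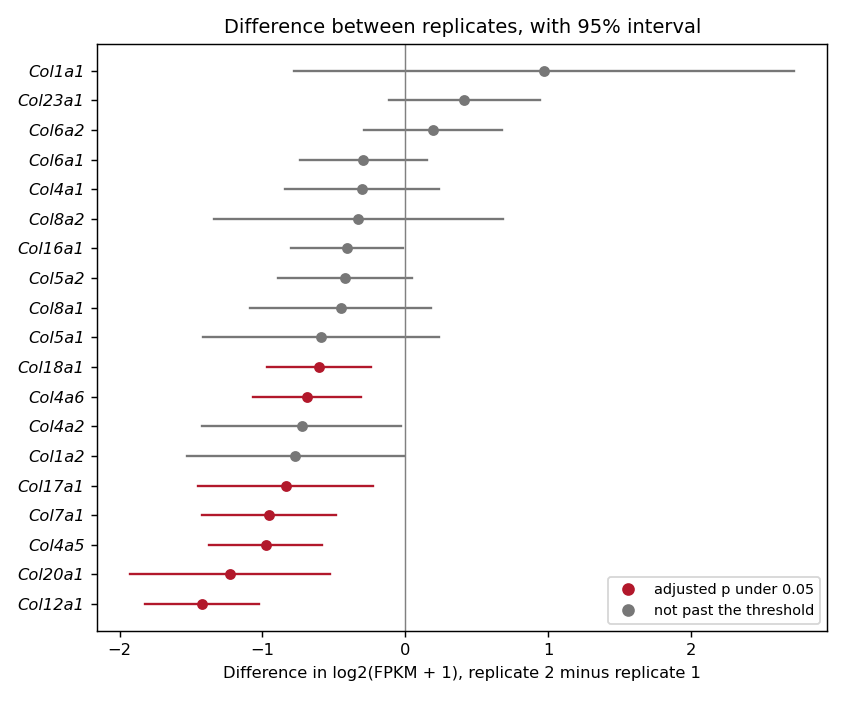
Difference in log2(FPKM + 1) between replicate 2 and replicate 1 libraries for the 19 tested collagens, with 95% intervals from limma and red for an adjusted p under 0.05. The 7 red genes lie between -1.42 (Col12a1) and -0.60 (Col18a1), and the interval of Col1a1 is the widest.

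The length of the locus moved with this contrast over all genes. Tested genes were split by locus span into 4 bins of equal size. In the bin with the longest loci the median difference was -0.38 and 37.5% were called lower. In the bin with the shortest loci it was 0.49 and 6.09% were called lower. Collagens have long loci, with a median of 119841 bp against 25752 bp over all tested genes, and 10 of the 19 belong to the longest bin. A listed locus can be shared by neighbouring genes, as that of Col4a1 and Col4a2 is, so its span is not always that of a single gene. After a trend on locus span was removed from each library, an alternative added after the data were seen, 5 collagens were called, 4 lower and 1 (Col23a1) higher, against 17.5% and 18.5% of all tested genes (36.0% in either direction), and the median of the 19 was -0.24. In that fit Col17a1 (-0.60, limma, adjusted p = 0.0602), Col4a6 (-0.38, adjusted p = 0.0895) and Col18a1 (-0.22, adjusted p = 0.245) no longer passed. Without the labelled cKO or the Het library of replicate 1, which leaves that replicate with 1 library, 0 of 19 collagens and 0 or 1 of all genes passed, while differences such as those of Col12a1 (-1.31 and -1.54), Col4a5 (-0.92 and -1.04) and Col17a1 (-0.84 in both) were about as large. Without the labelled cKO or the Het library of replicate 2, the differences were -1.29 and -1.56 for Col12a1 and -0.93 and -1.03 for Col4a5. They were -0.90 and -0.77 for Col17a1, and for Col1a1 they had opposite signs (-0.10 and 2.05). Col17a1 was not among the calls in any of these 4 fits. Some markers of bulge, suprabasal and other cells moved with the replicate number as well, in the fit with replicate number alone. The cornified envelope gene Lor (2.89, limma, adjusted p = 0.00452), the myeloid integrin gene Itgam (1.41, adjusted p = 0.00530), Thy1 (1.09, adjusted p = 0.00983) and Vim (0.56, adjusted p = 0.0404) were higher in replicate 2. The bulge genes Nfatc1 (-1.78, adjusted p = 0.00544), Lgr5 (-1.57, adjusted p = 0.00452) and Tcf7l1 (-1.34, adjusted p = 0.00712) were lower, while Krt15 (0.14, adjusted p = 0.824) and Cd34 (0.04, adjusted p = 0.929) did not pass. Of the whole lists, 4 of 10 bulge and basal markers were called lower and 0 higher. Called higher were 2 of 10 rows of 5 suprabasal genes, 2 of 2 tested fibroblast markers and 1 of 2 tested immune markers. Over all tested genes that fit called 20.9% lower and 22.4% higher, and whether these marker lists differ from all genes was not tested. The part of these markers' cells in the collagen differences was not tested.

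The partners of the basement membrane differed in the same contrast, in which 20.9% of all tested genes were called lower and 22.4% higher. Of 13 tested partners 9 were called lower and 1 (Cd151) higher, with Plec (-1.73), Dst (-1.46), Lama3 (-1.40) and Itga6 (-1.24) the lowest. Whether this list differs from all genes was not tested. Of 3 tested receptors Itga2 (-1.88) and Itgb1 (-0.64) were called lower, and of 21 modifying genes Leprel1, a prolyl 3-hydroxylase, was lower (-0.98) and Ppib higher (0.97).

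SOX9 peaks near the collagens were counted to see at which of them binding was called in HFSCs and IFE cells. The lists hold 8181 and 2989 peaks for HFSCs and 5209 for IFE cells, as intervals with no height, so peak strength could not be compared. Within 10 kb of the locus HFSC list 1 had a peak at 16 of 43 collagens (37.2%, against 22.6% of all genes in the table), HFSC list 2 at 11 (25.6% against 14.4%) and the IFE list at 10 (23.3% against 22.5%). Both HFSC lists had one at 10 collagens (23.3%, against 10.6% of all genes and 17.5% of the tested genes). Collagen loci are long, and the part of locus length in these shares was not tested. Per 100 kb of window HFSC list 1 had 0.553 peaks at collagens, 0.726 at all tested genes and 0.504 at all genes. List 2 had 0.169, 0.341 and 0.216 in the same order. Per length of window the 43 collagens, most of them not tested, held fewer peaks than tested genes in all 3 lists, the IFE values being 0.154 and 0.647. Against all genes of the table they held more in HFSC list 1 and fewer in list 2 and in the IFE list (0.438 at all genes).

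The 10 collagens with a peak in both HFSC lists were Col4a1, Col4a2, Col7a1, Col17a1 and Col18a1 of the epithelial and basement membrane class, Col5a1, Col11a2 and Col24a1 of the fibrillar class, and Col8a2 and Col10a1. Col4a1 and Col4a2 are listed with 1 shared locus (chr8:11187755-11449287), so its peaks cannot be given to either gene. There HFSC list 1 (chr8:11342956-11343898) and list 2 (chr8:11343142-11343556) overlapped deep within the locus. At Col18a1 (chr10:76494986-76629293, a locus shared in the table with Slc19a1) a peak of HFSC list 1 (chr10:76582020-76582502) overlapped peaks of list 2 and of the IFE list, and list 1 had 4 further peaks, of which 1 lay 984 bp beyond the locus. At Col5a1 list 1 had 5 peaks and list 2 had 1 (chr2:27794741-27795296), which overlapped one of them. At Col24a1 the peaks of the lists did not overlap, which leaves 9 collagens with a peak that overlaps between lists (20.9%, against 9.51% of all genes).

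At Col8a2 both HFSC lists had an overlapping peak upstream, with centres 8088 and 8090 bp before the 5′ edge of the locus (chr4:125955571-125956327 and chr4:125955496-125956398). The nearest other locus edge, that of Trappc3, was 2443 and 2368 bp away from them. The IFE peak near Col8a2 lay on the other side, 7068 bp beyond the locus, over the edge of Adprhl2. At Col7a1, Col11a2 and Col10a1 peaks of all 3 lists overlapped one another outside the locus, and each of these lay over a locus edge of another gene: Uqcrc1 near Col7a1, Slc39a7 near Col11a2 and Tspyl1 near Col10a1. The listed locus of Col10a1 is shared with Nt5dc1, Tspyl4 and Gm17321, so how far these peaks lie from Col10a1 itself is not known. Col11a2 had no peak within its own locus in any list, and Col2a1 had none within 10 kb in any list. Of the 7 cartilage collagens, 2 (Col10a1 and Col11a2) had a peak in any list, against 32.7% of all genes.

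Collagens with a peak in both HFSC lists but none in the IFE list were Col4a1, Col4a2, Col5a1 and Col24a1. These are 4 of 43, or 9.30%, against 1.93% of all genes and 3.04% of tested genes. Col4a1 and Col4a2 are counted here through the same peaks of their shared locus. At Col24a1 the peaks of the HFSC lists did not overlap, and the part of locus length was not tested. With 1 IFE library, cell types and libraries cannot be told apart. Peaks lay near collagens above and below 1 FPKM: 7 of the 20 at 1 FPKM or more in any library had one in both HFSC lists, as did 3 of the 23 below (Col10a1, Col11a2 and Col24a1, each above 0 in at least 1 library). A peak in any list was found at 12 and 7 of them, which is 19 of 43 (against 32.7% of all genes). Among the tested genes, whose mean is at least 1 FPKM, 51.4% had a peak in any list and 17.5% in both HFSC lists. All 3 lists had one at 6 of 43 collagens (against 8.7% of all genes). Abundant collagens without a peak in any list included Col12a1, Col5a2, Col1a2 and Col6a2. Col6a1 had 1 in HFSC list 1 only, 7109 bp from the locus, and Col1a1 had 2 there, 2005 and 5024 bp from the locus.

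**Figure D5:**
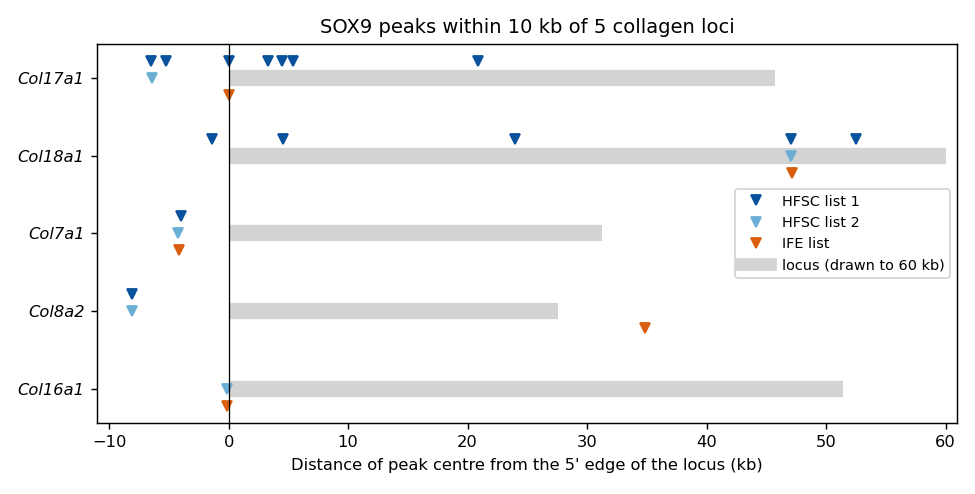
Distance (kb) of SOX9 peak centres from the 5′ edge of the locus at 5 collagen genes, with strands from RefSeq, grey bars for the loci and 1 row of triangles per list. At Col17a1 HFSC list 1 has 7 peaks and the other lists 1 each, and at Col8a2 the HFSC peaks lie 8088 and 8090 bp upstream while the IFE peak lies beyond the locus.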

How the data were processed

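RNA values were deposited as FPKM in 1 table with a column per library, per the file headers. Build mm9, Cufflinks 1.0.3, TopHat2, TopHat and Bowtie appear in the submitters' processing notes, without roles. The peak caller and strand settings are not stated there. Peak lists hold intervals only. Locus and peak starts, counted from 0 in the files, are shown counted from 1. Whole reads could not be recovered from low values (no bin of ratios between libraries held more than 2.46%), so no count model was used. log2(FPKM + 1) was fitted with limma 3.58.1 in R 4.3.3 (mean trend, two-sided, Benjamini-Hochberg over all tested genes), after a test on simulated data. The simulated libraries held no difference between replicates, unlike the libraries here, so that test does not show how the fit behaves with such a difference. The replicate numbers pair the libraries, since the labels give both libraries of a number the same sex, age and treatment days (their deviations correlate at 0.812 across genes). The spread behind each p-value is that of these libraries and may be technical. The collagens, classes and lists were chosen with earlier results of these data known. The naming rule gave values for every collagen at 1 FPKM in any library, and for other lists the 4 most abundant and the 2 genes of smallest p. The 3 input libraries were not used here. A gene had a peak when 1 overlapped its locus extended by 10 kb.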

Additional observations from a re-analysis of the deposited data

Results flagged for a closer look

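The genotype difference of 2 fibrillar genes had opposite signs in the male and the female pair, each by at least 0.5 in log2(FPKM + 1). Col1a1 differed by -1.07 in the male pair and by 2.15 in the female pair. Col5a1 differed by -0.71 in the male pair and by 0.63 in the female pair. With 1 pair per sex the difference between pairs was not tested.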

How the results depend on the processing

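No collagen was called between genotypes in any of the 12 fits, with 0 genes called in all without the block, 41 with the replicate block, 7 with no filter and 2 to 41 with 1 library left out. The replicate block changed no collagen's call. Between replicates 7 collagens were called, and 0 with no filter (7 of all genes against 6266). The number called also changed with 1 library left out. The cause of these changes was not tested. The mean class ratio of 45.9 became 12.3 without the most abundant gene of each class, which is by construction. Collagens with a peak in both HFSC lists numbered 10 within 10 kb (23.3%, against 10.6% of all genes). They were 5 inside the locus (11.6% against 7.65%), 6 within 5 kb (14.0% against 9.24%) and 13 within 50 kb (30.2% against 20.9%). HFSC list 1 had 16 (37.2% against 22.6%), 9 inside the locus (20.9% against 16.6%) and 17 within 50 kb (39.5% against 38.2%). At 10 kb and inside the locus, list 2 had 11 (25.6% against 14.4%) and 6 (14.0% against 10.9%). At 5 kb and 50 kb it had 7 (16.3% against 12.9%) and 13 (30.2% against 25.5%). In the same order the IFE list had 10 (23.3% against 22.5%), 5 (11.6% against 17.2%), 6 (14.0% against 20.1%) and 14 (32.6% against 36.5%).

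Signs near 0 turned in some fits. With quantile normalization the genotype difference was -0.061 for Col18a1, -0.20 for Col17a1, 0.023 for Col5a1 and 0.017 for Col12a1. Col5a1 was at 0.027 with a pseudocount of 0.1 and 0.014 with the span trend removed, where Col12a1 was at 0.042 and, between replicates, Col4a1 at 0.021. With 1 library left out, part of the replicate difference enters the genotype difference, which lay between -0.34 and 0.40 for Col18a1, -0.75 and 1.83 for Col1a1, -1.18 and 0.12 for Col20a1, -0.38 and 0.51 for Col17a1, -0.86 and 0.33 for Col7a1, -0.67 and 0.59 for Col5a1, -0.35 and 0.35 for Col4a6, -0.53 and 0.56 for Col4a5, -0.56 and 0.089 for Col4a1, -1.04 and 0.068 for Col4a2, -0.85 and 0.82 for Col12a1, -0.11 and 0.45 for Col16a1, -0.43 and 0.16 for Col23a1 and -0.040 and 0.56 for Col8a1. Between replicates it lay between -0.10 and 2.05 for Col1a1, -0.0024 and 0.39 for Col6a2 and -0.91 and 0.25 for Col8a2. Depth is unknown, so the counting error of low values, such as those of Col6a3, could not be estimated.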
